A study of Mus musculus with 14 samples.

Results

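The genes described here encode the transferrin receptor and the proteins that carry, store, release and sense iron: Tfrc, Slc11a2, Slc11a1, Aco1, Ireb2, Fth1, Ftl1, Hmox1, Cd163 and Slc40a1. They were taken by gene name from the scanner files of 14 single-colour mouse arrays, and each was represented by the probe with the highest mean signal. All 10 names were found, on 15 of 55681 non-control probes and among 34741 named genes. The set was selected on the Tfrc signal of sorted cells seen in earlier results of these data, so those Tfrc values are given as a description with no test.

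The samples were RNA from C57Bl/6 mice, extracted from cells labelled as lymphatic endothelium of the lymph node and taken either from the subcapsular sinus, which receives incoming lymph beneath the capsule, or from the medullary sinus, from which lymph leaves the node. Laser-capture microdissection (LCM) gave 5 subcapsular and 5 medullary samples of 50 cells each, cut from frozen sections stained for CD31, an endothelial surface protein, and F4/80, a macrophage surface protein. Fluorescence-activated cell sorting (FACS) gave 2 subcapsular and 2 medullary samples of 1200 cells each, from digested nodes, stained for leukocyte and erythroid lineages, for CD73 and for podoplanin, with 7-AAD to leave out dead cells. The sorted cells came from more lymph node sites than the captured cells. No genetic change or treatment was named for any group, and age and sex were not given in the sources used here. The samples were labelled as biological replicates but not tied to animals, so captured samples may share an animal and p-values over them may then be too small.

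Cells take up iron mainly as transferrin, which the transferrin receptor carries into endosomes. The divalent metal transporter Slc11a2 moves the released iron into the cytosol, and ferritin, built of heavy (Fth1) and light (Ftl1) chains, stores it. The iron regulatory proteins, encoded by Aco1 and Ireb2, bind hairpins in the messenger RNAs of Tfrc and the ferritins when iron is scarce, which keeps Tfrc message and holds back ferritin synthesis. Macrophages, including those lining lymph node sinuses, take up haemoglobin through Cd163, break haem down with Hmox1 and release iron through the exporter ferroportin, Slc40a1.

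Levels are log2 signal relative to the array's own 75th percentile, so that 0 is the brightness which 1 probe in 4 exceeds, and each array flags whether a probe is well above its local background. Levels of different probes are not compared. Subcapsular LCM arrays 1 and 2 were the dimmest: 55.9% and 50.8% of their probes were above background, against 57.9% to 79.0% on the other 12, and their 75th percentiles were the lowest. Array 1 lay close to subcapsular LCM array 4, at 57.9%. Of 14 lymphatic endothelial genes on the array, 9 to 13 were above background on the medullary LCM arrays, 5 to 11 on subcapsular LCM, 10 to 11 on subcapsular FACS and 6 to 9 on medullary FACS arrays. Prox1 was so on all 14 arrays, and Lyve1 on 3 of 5 arrays of each LCM group, 1 of 2 subcapsular FACS and 0 of 2 medullary FACS arrays. Pdpn, which encodes podoplanin, was so on 1 of 5 subcapsular and 4 of 5 medullary LCM arrays, 1 of 2 subcapsular FACS arrays (mean level -5.25) and 2 of 2 medullary FACS arrays (-0.92). Pecam1, which encodes CD31, had mean levels of 4.18 to 4.82 in the other 3 groups and -3.60 in medullary FACS cells. Since the samples are bulk RNA, fewer cells of a type and less RNA per cell cannot be told apart in any value below.

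**Figure D1:**
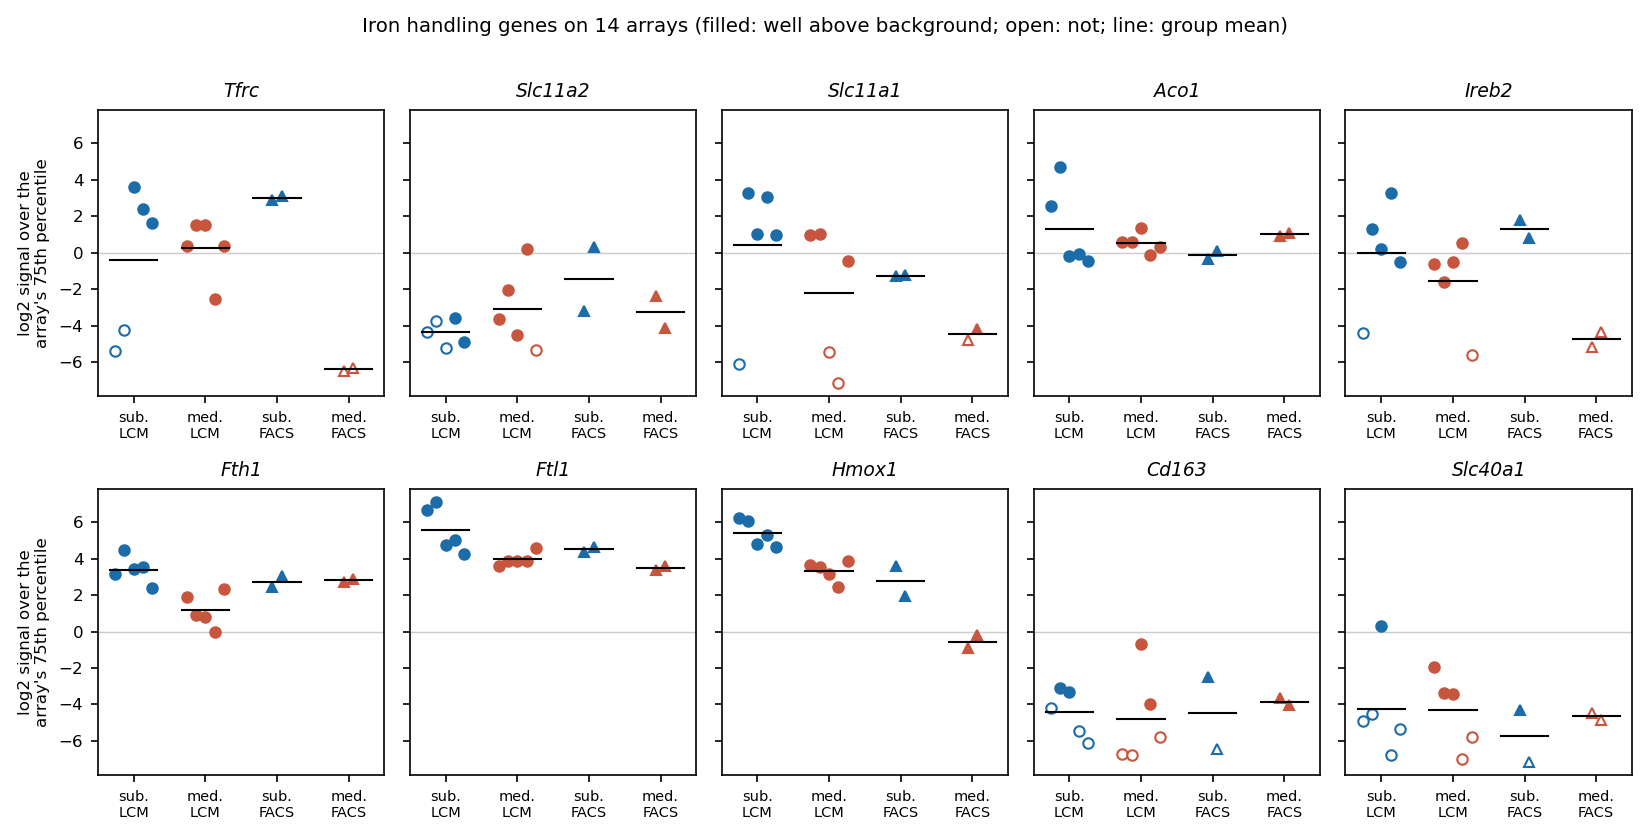
Levels of the 10 iron handling genes on each of 14 arrays, as log2 signal over the array's 75th percentile (vertical axis), by sinus (sub., subcapsular; med., medullary) and isolation (LCM, n = 5 per sinus; FACS, n = 2 per sinus). Filled symbols are well above background, open symbols are not, and lines are group means; Hmox1, Fth1, Ftl1 and Aco1 were above background on all 14 arrays, and Tfrc on both subcapsular and neither medullary FACS array.

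Tfrc was bright in sorted subcapsular cells and not well above background in sorted medullary cells. Its brightest probe, at base 4288 of the transcript (mm9, chromosome 16, 32632255 to 32632314, plus strand), read 2.87 and 3.1 in subcapsular FACS samples 6 and 7 and -6.47 and -6.32 in medullary FACS samples 6 and 7. The groups lie far apart, and the medullary value has only an upper bound, so sorted medullary cells had at least a 172-fold lower level; the bound sets the mean of the subcapsular arrays against the dimmest signal still called above background on each medullary array. This contrast chose the gene and has no test. In the same comparison 1071 of 27634 genes, 3.88%, were above background on both subcapsular and neither medullary array.

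The same probe is printed as 10 spots on every array, which shows how far its reading varies between spots of 1 array. These spots share 1 amplified sample, so their spread does not cover capture, sorting or amplification of the cells. On the 10 arrays where most Tfrc spots were above background, all 10 spots were, and their log2 signals had an SD of 0.05 to 0.18. On the other 4 arrays (both medullary FACS arrays and subcapsular LCM arrays 1 and 2), 0 or 1 of the 10 spots was above background, with an SD between spots of 0.41 to 0.86. On the 10 arrays with Tfrc above background, the spread between spots was therefore far smaller than the spread between arrays of the LCM groups.

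Captured cells gave no such separation of the sinuses for Tfrc. In subcapsular LCM samples 1 to 5 the probe read -5.41, -4.27, 3.60, 2.39 and 1.64, and in medullary LCM samples 1 to 5 it read 0.39, 1.50, 1.50, -2.52 and 0.39. The subcapsular values fall into 2 arrays not above background and 3 bright ones, with the medullary values between them, so the groups overlap. The mean difference was 0.66 ± 1.76 (SE, n = 5 per sinus), with a limma adjusted p of 0.912 over all 27353 genes. Without subcapsular LCM arrays 1 and 2 it was -2.29 ± 0.98, with a limma adjusted p of 0.367, so these arrays set its sign.

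The remaining Tfrc probes lie further upstream in the transcript, and are shown because they gave another account of the captured cells. The probe at base 1228 maps to chr16:32620470-32620529, and the probe at base 1732 to chr16:32624877-32625093 (mm9, plus strand), where its 60 bases cover 217 bases of the genome and so cross an intron:
Tfrc base 1228: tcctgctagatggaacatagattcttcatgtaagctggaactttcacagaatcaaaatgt
Tfrc base 1732: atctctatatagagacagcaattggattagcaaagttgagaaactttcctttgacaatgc

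In sorted cells all 3 Tfrc probes split the sinuses the same way. The probe at base 1228 read -3.96 and -1.14 in subcapsular and -6.75 and -4.75 in medullary FACS cells, and the probe at base 1732 read -2.28 and -3.38 against -6.70 and -6.62. Each was above background on both subcapsular and neither medullary FACS array. In captured cells the probes disagreed on which arrays held Tfrc signal. On subcapsular LCM arrays 1 to 5 the probe at base 1228 read -1.58, -5.66, -1.78, -6.97 and -2.26, above background on arrays 1, 3 and 5. The probe at base 1732 read -2.40, -1.67, -7.23, -7.06 and -7.43, above background on arrays 1 and 2 alone, the arrays on which the probe at base 4288 was not. Of the 5 medullary LCM arrays, 0 were above background at base 1228 and 1 at base 1732. With the probe at base 1228 standing for Tfrc, the LCM difference was -3.01 ± 1.12, with a limma adjusted p of 0.356.

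**Figure D2:**
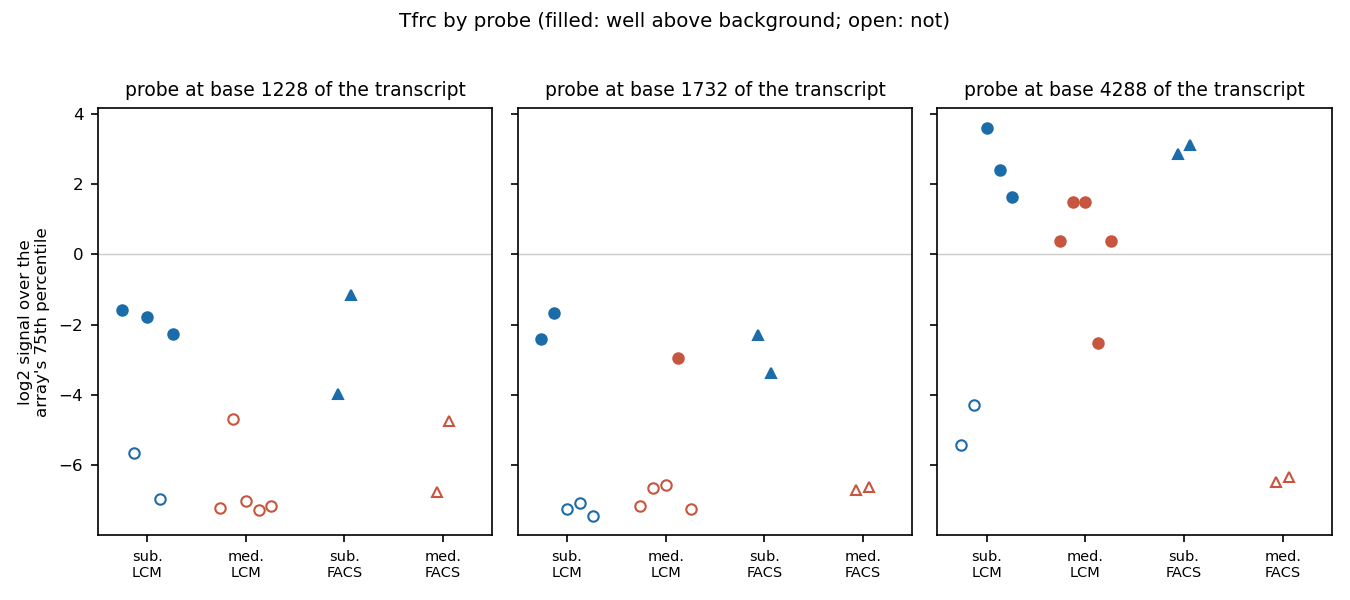
Tfrc on each array by probe, as log2 signal over the array's 75th percentile (vertical axis); filled symbols are well above background, open symbols are not. In FACS samples (triangles) all 3 probes were above background on both subcapsular (sub.) and neither medullary (med.) array, while in LCM samples (circles) the subcapsular arrays above background differed between probes.

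In order of the measured group means, Tfrc read highest in subcapsular FACS (2.99 ± 0.16, SD, n = 2), then medullary LCM (0.25 ± 1.65, n = 5), subcapsular LCM (-0.41 ± 4.12, n = 5) and medullary FACS samples (-6.40 ± 0.11, n = 2). The mean of subcapsular LCM holds the readings of arrays 1 and 2, which were not above background, as neither medullary FACS reading was, so these 4 readings are upper bounds with no order among them. Subcapsular FACS values lay above all medullary LCM values but overlapped those of subcapsular LCM samples, and the LCM groups overlapped each other.

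The genes whose levels over the 14 arrays were most like those of Tfrc, by the root mean square difference after each gene's mean was removed, were Fam13b (1.22 log2 units), Gpn3 (1.29), Slc15a2 (1.36), Myadm (1.37) and Mapkapk5 (1.41). The median over 29595 genes compared was 4.07. All 5 were, like Tfrc, not above background on subcapsular LCM arrays 1 and 2 and on both medullary FACS arrays, and above background on the other 10. Because they were chosen for their likeness to Tfrc on these same arrays, this shared pattern follows from the choice. As an example, Slc15a2, a peptide transporter, read -5.13 and -4.85 on subcapsular LCM arrays 1 and 2 and 0.37 to 3.14 on the other 3 subcapsular LCM arrays.

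Slc11a2, the endosomal and apical divalent metal transporter, was dim, and none of its differences passed the test. Its brighter probe read -4.35, -3.75, -5.21, -3.59 and -4.92 in subcapsular LCM samples, 2 of them above background, and -3.66, -2.05, -4.54, 0.22 and -5.32 in medullary LCM samples, 4 of them above background. In FACS samples it read -3.22 and 0.30 (subcapsular) and -2.37 and -4.14 (medullary), all above background. The ranges overlap within each isolation: the medullary minus subcapsular difference was 1.29 ± 0.97 by LCM (95% interval -0.86 to 3.44) and -1.79 ± 1.51 by FACS (-5.99 to 2.40), with limma adjusted p of 0.647 and 0.415. A further Slc11a2 probe, at base 2961, was above background on 4 of 14 arrays.

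Slc11a1, the phagosomal metal transporter of macrophages and neutrophils, was lower in sorted medullary than in sorted subcapsular cells, without passing the test. It read -1.28 and -1.23 in subcapsular FACS cells and -4.77 and -4.21 in medullary FACS cells, where 1 of 2 arrays was above background. That difference was -3.23 ± 0.58 with a limma adjusted p of 0.0866. In captured cells its values ranged widely: -6.10, 3.26, 1.04, 3.08 and 0.95 in subcapsular and 1.00, 1.02, -5.44, -7.16 and -0.44 in medullary samples. The LCM difference was -2.65 ± 2.13 with a limma adjusted p of 0.675, and Slc11a1 was above background on 4 of 5 subcapsular and 3 of 5 medullary arrays.

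Neither gene of the iron regulatory proteins passed a test between sinuses within an isolation. Aco1, whose product is cytosolic aconitase when it holds an iron-sulphur cluster and an RNA-binding regulator when it does not, was above background on all 14 arrays. It read -0.36 and 0.07 in subcapsular FACS cells and 0.94 and 1.09 in medullary FACS cells, a difference of 1.16 ± 0.57 with a 95% interval of -0.43 to 2.76 and a limma adjusted p of 0.224, where the median difference of all genes was 0.73. In LCM samples it read 2.55, 4.69, -0.17, -0.06 and -0.44 (subcapsular) and 0.60, 0.61, 1.36, -0.10 and 0.31 (medullary). The high subcapsular readings were those of arrays 1 and 2: the LCM difference of -0.76 ± 0.97 (limma adjusted p of 0.802) became 0.78 ± 0.44 (0.455) without both.

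Ireb2, whose product is degraded when iron is plentiful, had the largest tested difference of these genes between sorted sinuses. Its only probe lies at base 2735 of the transcript, chr9:54756566-54756625 (mm9, plus strand), and is shown because a single 60-base probe carries this result:
Ireb2 base 2735: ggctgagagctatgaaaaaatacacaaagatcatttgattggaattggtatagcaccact

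Ireb2 read 1.77 and 0.79 in subcapsular FACS cells, and -5.18 and -4.35 in medullary FACS cells, where neither array was above background. The groups do not overlap, and the level was at least 52.9-fold lower in medullary cells. The measured difference of -6.04 ± 0.71 had a limma adjusted p of 0.0647, a value shared by 537 genes in that comparison, of which 458 had a lower unadjusted p. It passed the threshold with a variance trend and robust moderation (0.0437), where 6.51% of all genes did, and with all 14 arrays in 1 fit (0.0322), where 16.2% did. With the replicate number as a block the limma adjusted p was 0.172. In captured cells Ireb2 read -4.40, 1.3, 0.20, 3.29 and -0.49 (subcapsular) and -0.64, -1.62, -0.51, 0.56 and -5.59 (medullary), with 4 of 5 arrays of each sinus above background. These ranges overlap, and the LCM difference was -1.54 ± 1.48 with a limma adjusted p of 0.737.

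Both ferritin chains were above background on every array, and both were brighter in captured subcapsular than in captured medullary cells without passing the test. The heavy chain gene Fth1, which carries the ferroxidase activity, read 3.19, 4.51, 3.45, 3.53 and 2.37 in subcapsular LCM samples and 1.92, 0.91, 0.80, -0.01 and 2.33 in medullary LCM samples. The groups do not overlap, though the lowest subcapsular value lies just above the highest medullary one. The difference was -2.22 ± 0.61, or 4.66-fold lower in medullary cells, with a limma adjusted p of 0.223. Sorted cells did not show it: Fth1 read 2.44 and 3.04 (subcapsular) and 2.73 and 2.90 (medullary), a difference of 0.08 ± 0.59 with a 95% interval of -1.58 to 1.73. The test of whether the sinus difference itself differed between the isolations gave 2.30 ± 0.92, with a limma adjusted p of 0.186.

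The light chain gene Ftl1 has a probe at base 462, chr7:52714014-52714495 (mm9, minus strand), whose 60 bases cover 482 bases of the genome and so cross an intron. It is shown because the mouse genome holds processed ferritin copies, which lack introns and can share the message's sequence, so the ferritin readings cannot be assigned to 1 locus with certainty:
Ftl1 base 462: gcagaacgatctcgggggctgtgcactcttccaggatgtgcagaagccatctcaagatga

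In subcapsular LCM samples Ftl1 read 6.67, 7.14, 4.74, 5.01 and 4.24, and in medullary LCM samples 3.62, 3.87, 3.88, 3.87 and 4.61. Subcapsular arrays 1 and 2 were the brightest, and the groups overlap through the lowest subcapsular and the highest medullary array. The difference was -1.59 ± 0.64 with a limma adjusted p of 0.386. In FACS cells Ftl1 read 4.40 and 4.65 (subcapsular) and 3.41 and 3.63 (medullary), a difference of -1.01 ± 0.56 with a limma adjusted p of 0.262. The probe at base 915 gave the same sign by LCM, with group means of 4.00 ± 1.44 (subcapsular, SD, n = 5) and 2.01 ± 0.50 (medullary, n = 5). By FACS that probe read 2.65 and 3.34 (subcapsular) and 0.48 and 3.60 (medullary), which overlap. Its FACS difference was -0.96, with a limma adjusted p of 0.592.

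Hmox1, the inducible enzyme that opens the haem ring and frees its iron, was the only one of these genes to pass a test. Its brighter probe, at base 1290, read 6.24, 6.10, 4.83, 5.33 and 4.63 in subcapsular LCM samples, 3.66, 3.56, 3.17, 2.46 and 3.88 in medullary LCM samples, 3.59 and 1.97 in subcapsular FACS samples and -0.90 and -0.20 in medullary FACS samples. Within each sinus, every sorted sample read below every captured sample; over both sinuses the isolations overlap, since 1 subcapsular FACS array lies within the medullary LCM range. Sorted cells were lower by 3.27 log2 units on average (difference -3.27 ± 0.45, 95% interval -4.25 to -2.29), a 9.65-fold difference with a limma adjusted p of 0.00111 over 29654 genes. In that comparison 3.86% of all genes passed the threshold (2.04% lower), and 1 of the 9 iron handling genes with a test did; the groups of 1.02% of all genes, and of 0 of the 10, do not overlap.

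That call had limits. LCM and FACS samples shared 1 slide only through medullary samples: all subcapsular LCM and medullary LCM 1 to 3 were on the first slide, and medullary LCM 4 and 5 with all FACS samples on the second. With the slide as a block the Hmox1 difference was -3.04 ± 0.81 with a limma adjusted p of 0.142, and among the medullary samples of the second slide alone it was -3.72 ± 0.83 with 0.187. The weaker Hmox1 probe, at base 324, chr8:77620797-77620856 (mm9, plus strand), did not show it and is given for that reason:
Hmox1 base 324: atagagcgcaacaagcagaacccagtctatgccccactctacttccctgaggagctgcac

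That probe was above background on all 14 arrays, with group means of -0.42 ± 2.53 (subcapsular LCM), -2.19 ± 2.34 (medullary LCM), -1.66 ± 3.73 (subcapsular FACS) and -1.83 ± 1.04 (medullary FACS; SD, n = 5, 5, 2 and 2). Its isolation difference was -0.43 ± 1.23 with a limma adjusted p of 0.924, and the mean of both Hmox1 probes gave -1.85 ± 0.71 with 0.207. The probes differed in their spread: SDs within the groups were 0.49 to 1.15 at base 1290 and 1.04 to 3.73 at base 324.

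Between the sinuses, the bright Hmox1 probe read lower in medullary cells by either isolation, without passing the test. By LCM the groups do not overlap, with a difference of -2.08 ± 0.53, 4.23-fold lower, and a limma adjusted p of 0.195. By FACS the difference was -3.33 ± 0.83, with a limma adjusted p of 0.113 from the 4 FACS arrays and 0.0102 with all 14 arrays in 1 fit. The sinus differences did not separate by isolation in the test of their difference (-1.25 ± 0.90, limma adjusted p of 0.427).

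Cd163, the haemoglobin scavenger receptor, and Slc40a1, the exporter ferroportin, were near the detection limit. Cd163 was above background on 2 of 5 arrays of each LCM group, 1 of 2 subcapsular FACS and 2 of 2 medullary FACS arrays. Its readings above background were -3.09 and -3.31 (subcapsular LCM), -0.70 and -3.96 (medullary LCM), -2.47 (subcapsular FACS) and -3.67 and -4.02 (medullary FACS). It did not enter the LCM comparison, and its FACS difference was 0.61 ± 1.52 with a limma adjusted p of 0.777.

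Slc40a1 was above background on 1 of 5 subcapsular LCM arrays, at 0.32, and on 3 of 5 medullary LCM arrays, at -1.93, -3.36 and -3.45. Among sorted samples it was above background on 1 array, subcapsular FACS 6, at -4.31, and it did not enter the FACS comparison. The LCM difference was -0.05 ± 1.36, with a 95% interval of -3.05 to 2.95 and a limma adjusted p of 0.992. A difference between the sinuses below the upper bounds set by background was not detectable for either gene.

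**Figure D3:**
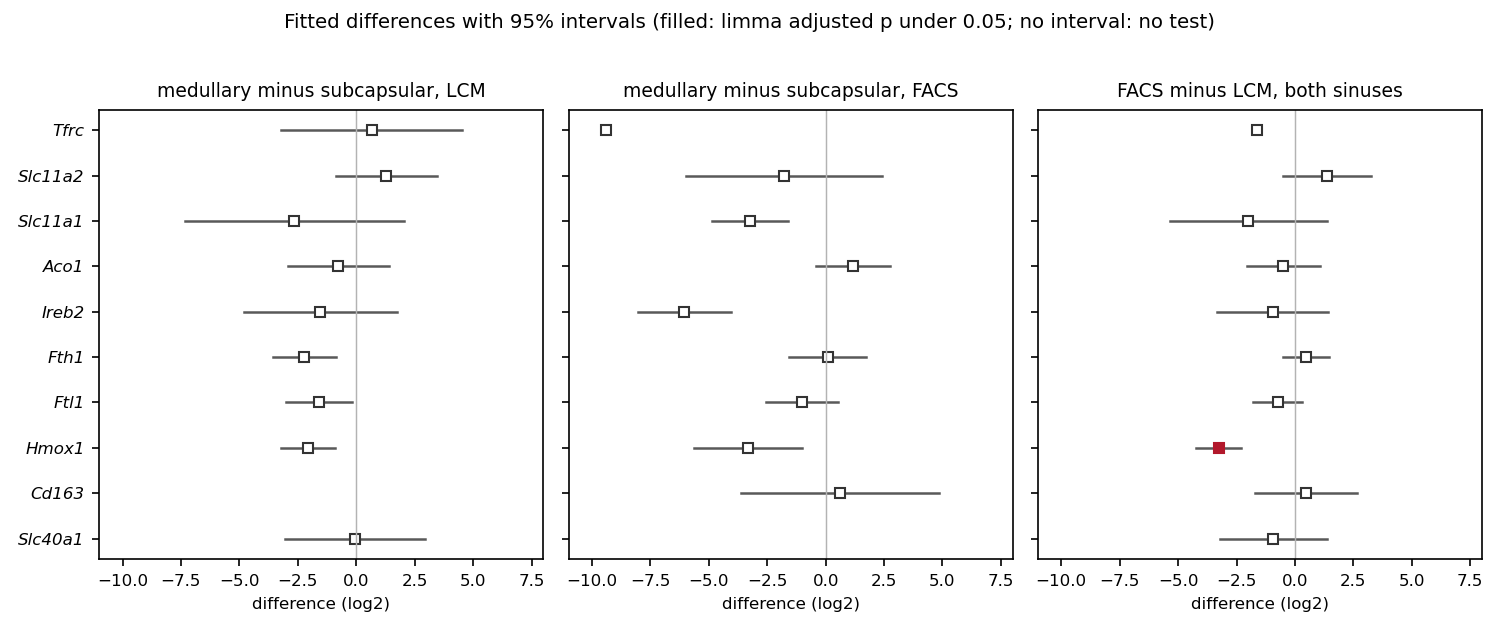
Fitted differences of the iron handling genes (squares; horizontal axis, log2 units) with 95% intervals for medullary minus subcapsular by LCM, the same by FACS, and FACS minus LCM over both sinuses. Hmox1 in the isolation comparison (-3.27) is the only filled square, limma adjusted p of 0.00111; Tfrc has no interval where sorted arrays enter because its level there chose the set, and its squares there include readings not above background, and genes that did not enter a comparison have no square.

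Read over the whole set, 9 of the 10 genes entered the LCM comparison and 0 passed the threshold, where 0.175% of all genes did by limma. Among the 9, 7 were lower and 2 higher in medullary cells, and 2 (Fth1 and Hmox1, both lower) had groups that do not overlap; 3.09% of all genes had such groups, 2.06% in that direction. In the FACS comparison 9 genes entered, and of the 8 with a test 0 passed, as did 0 of all 27634 genes (0%), with 8815 of these at an unadjusted limma p under 0.05. The FACS groups do not overlap for 6 of the 9, 5 of them lower in medullary cells including Tfrc, whose value chose the set. With 2 arrays against 2 this held for 69.6% of all genes, so the count over both directions is near the background. In the lower direction it held for 26.7% of all genes. Among the 5, Tfrc chose the set, and Tfrc, Ireb2 and Slc11a1 entered only through the subcapsular arrays, where they are high. The 5 are therefore not read as an excess over that share, and no test was run. The sinus difference was tested for a change with isolation in 9 genes, and 0 passed, against 1.29% of all genes. The median difference of all genes was 0.08 by LCM and 0.73 by FACS, so a medullary reading that equals the subcapsular one by FACS was 0.73 below the typical gene.

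Levels of other cell types moved with some of these results, and their part in them was not tested. The summed signal of 21 macrophage genes, a list that includes the Spic of haem-handling macrophages, was 661 to 2490 times the 75th percentile in subcapsular LCM samples and 389 to 561 in medullary LCM samples, the direction of Fth1, Ftl1 and Hmox1. By the fit, 19 of 20 macrophage genes tested were lower in medullary LCM cells (median -1.85), 0 of them called. Marco, a scavenger receptor gene that lymphatic endothelium also expresses, made up 27.9% to 36.5% of the subcapsular LCM sum; without it the sums were 464 to 1670 and 334 to 442. Other lists also separated the captured sinuses. The 11 B cell genes summed to 245 to 681 in subcapsular and 108 to 187 in medullary LCM samples, with 10 of 11 lower in medullary cells and 0 called. The 13 genes of blood endothelium and high endothelial venules summed to 45.5 to 193 and 225 to 373, with 11 of 13 higher in medullary cells and 3 called higher by limma (Fut7, Ackr1 and Chst4). Of all genes 0.175% were called by LCM in either direction. In sorted cells the macrophage sum was 382 to 384 in subcapsular and 584 to 621 in medullary FACS samples. Itgam, an integrin gene, made up 68.8% to 87.1% of these sums, and without it they were 115 to 119 and 75.6 to 130, which overlap. By the fit, 6 of 19 macrophage genes tested were higher and 13 lower in medullary FACS cells (median -0.53), 0 of them called; Hmox1 was also lower there. Between isolations, 19 of 21 macrophage genes were lower in sorted cells (median -1.39), and 6 of them were called lower, as was Hmox1: Timd4, Lyz2, Msr1, Lyz1, Spic and C1qa. Of all genes 2.04% were called lower in that comparison. Adgre1, which encodes F4/80, was above background on all 14 arrays.

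The Tfrc split in sorted cells went with other lists. Summed signal of 19 cell division genes was 48.5 to 49.9 in subcapsular and 13.9 to 27.5 in medullary FACS samples. Of the 17 tested by FACS, 5 were higher and 12 lower in medullary cells, with 0 called. The 14 lymphatic endothelial genes summed to 19.1 to 44.0 in subcapsular and 2.11 to 3.23 in medullary FACS samples. Pecam1, which blood endothelium also expresses, made up 82.1% to 87.9% of the subcapsular FACS sums of that list, and without it the sums were 3.43 to 5.31 and 2.04 to 3.13. Of 11 lymphatic endothelial genes tested by FACS, 5 were higher in medullary cells, among them Prox1 and Pdpn, and 6 lower, with 0 called. The 11 B cell genes gave 199 to 318 against 43.8 to 118, and the 11 T cell genes 71.5 to 85.7 against 24.3 to 27.7. Tfrc is highly expressed by erythroid precursors, and the 15 erythroid genes on the array gave 32.2 to 69.5 in subcapsular and 76.0 to 121 in medullary FACS samples, against the direction of Tfrc. Among captured cells the erythroid sum was 55.6 to 216 in subcapsular and 88.1 to 159 in medullary samples.

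**Figure D4:**
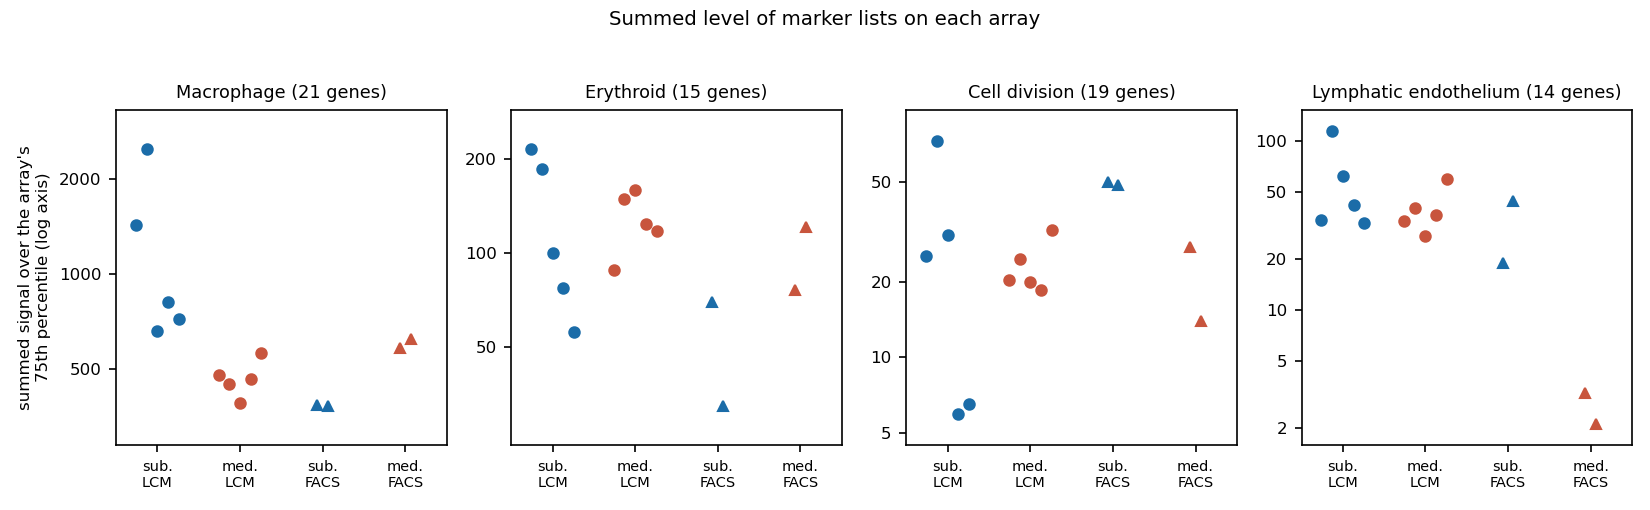
Summed linear signal of 4 marker gene lists on each array, relative to the array's 75th percentile (vertical log axes, each with its own range), by sinus (sub., subcapsular; med., medullary) and isolation (LCM circles, FACS triangles). Macrophage sums were 661 to 2490 in subcapsular LCM and 584 to 621 in medullary FACS samples, and lymphatic endothelial sums were 2.11 to 3.23 in medullary FACS samples, against 19.1 to 44.0 in subcapsular FACS samples, most of which was Pecam1.

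A wider list of 79 iron genes, all on the array, was counted whole in 5 classes. By LCM 67 were tested, 33 higher and 34 lower in medullary cells with a median difference of 0, and 0 were called. Among the genes that led their class by p were Slc22a17, a lipocalin receptor (1.65 ± 0.54), Cp, the plasma ferroxidase ceruloplasmin (-2.88 ± 0.93), Hif1a, the hypoxia-inducible factor subunit (-2.22 ± 0.84), and Cisd1, an iron-sulphur protein of the outer mitochondrial membrane (-3.04 ± 1.76), with limma adjusted p of 0.295 to 0.529.

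In sorted cells 64 of these iron genes were tested, 27 higher and 37 lower in medullary cells, with a median difference of -1.23 where that of all genes was 0.73, and 0 were called. The class of mitochondrial iron and iron-sulphur cluster genes had 10 of 11 lower (median -2.97), and that of storage, chaperones and ferritin turnover 8 of 10 lower (median -2.41). Transferrin uptake genes were split, 6 higher and 6 lower. Haem genes were 10 higher and 10 lower, and export and systemic control genes 8 higher and 3 lower.

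By class, the lowest adjusted p in sorted cells belonged to Hip1r, a clathrin adaptor, Hif1a, Hamp, the iron hormone hepcidin, Nfs1, the cysteine desulphurase of iron-sulphur cluster assembly, and Blvrb, a biliverdin reductase. None was above background on the medullary FACS arrays except Hamp, so the readings were at least 205-fold (Hip1r), 10.3-fold (Hif1a), 7.92-fold (Nfs1) and 1.66-fold (Blvrb) lower there. Their limma adjusted p were 0.0647, 0.0647, 0.0814 and 0.0950. Hamp was above background on all 4 FACS arrays, at a difference of -5.08 ± 0.67 with a limma adjusted p of 0.0677.

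Between the isolations 71 of these genes were tested, 30 higher and 41 lower in sorted cells with a median of -0.17. By limma 3.86% of all genes were called there (2.04% lower), and 4 of the 71 iron genes were called, all lower. These were Cp at -4.66 ± 1.03 (adjusted p of 0.0234), Cul1, a ubiquitin ligase scaffold, at -3.03 ± 0.63 (0.0172), Spic, a transcription factor of iron-recycling macrophages, at -2.46 ± 0.59 (0.0340), and Steap4, a metalloreductase, at -5.54 ± 1.26 (0.0272). With the slide as a block the differences were larger but less precise, and none passed: Cp -5.69 ± 1.81, Cul1 -3.75 ± 1.11, Spic -3.40 ± 1.00 and Steap4 -5.82 ± 2.25, with limma adjusted p of 0.227, 0.188, 0.186 and 0.337. On the second slide alone, among medullary samples, they were -5.79, -5.07, -2.97 and -7.93, with limma adjusted p of 0.299, 0.139, 0.220 and 0.126. Without subcapsular FACS sample 7 they were -3.96, -3.04, -1.95 and -4.50, with limma adjusted p of 0.129, 0.0841, 0.208 and 0.173. Cul1 also lost its call without subcapsular FACS sample 6 (-3.03, 0.0900). Cp lost it without medullary FACS sample 7 (-3.31, 0.0564), with the mean of its probes (-2.85, 0.0685) and without both dim arrays (-4.36, 0.0627). Spic lost it without medullary FACS sample 7 (-2.32, 0.0762), without medullary LCM samples 1, 4 or 5 (0.0595, 0.0574 and 0.0597), without subcapsular LCM sample 2 (0.0534), without both dim arrays (0.0664) and without array weights (0.0727). Steap4 lost it with quantile normalization (0.0538), with the percentile over detected probes (0.0673), in the deposited table (0.0538) and without array weights (0.0642). The sign of each of the 4 differences was the same in all 28 alternatives. The sinus difference was not called to change with isolation for any of 71 iron genes, by limma.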

How the data were processed

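Per the file headers, the arrays were single-colour Agilent arrays read with Feature Extraction 10.7.3.1 on an mm9 design; per the labels' protocols, RNA came from cells lysed and amplified with the SuperAmp system. The deposited intensity values used were each spot's processed signal, and, for an alternative, its mean and background signals. From these, log2 values were taken after leaving out spots marked as outliers, repeated spots were averaged, and each array's 75th percentile over non-control probes was subtracted. The authors' deposited log2 table has a median of 5.43 on every array and correlates with the scanner values at 0.979 to 1; its scale was read as log2, its normalization is not given in the sources used here, and it served as an alternative.

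For a sinus comparison a gene's probe had to be flagged above background on at least 3 of 5 LCM arrays, or both FACS arrays, of a sinus; genes of either comparison entered the fits over all arrays. Differences were fitted with limma 3.58.1 (R 4.3.3) over all genes and adjusted by Benjamini-Hochberg, with a threshold of 0.05; fits over 14 arrays weighted arrays by isolation. The number of arrays limits the precision. Members and gene lists were chosen with earlier results of these data known. Other iron genes were named when called, or when first of their class by p in a sinus comparison. Results of some genes, are not reported here. Tfrc was to be tested between isolations too; that test was dropped because it rests on the same sorted arrays. Alternatives covered background correction, scaling, filter, probe, moderation, slide, row, replicate block and each sample left out; leaving out both dim arrays and using the second probe were chosen after seeing the data. The fits were tested on simulated data. Figures were drawn with matplotlib.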

Additional observations from a re-analysis of the deposited data

Results flagged for a closer look

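The readings of the 10 genes in each LCM group, and the share of probes above background, were checked for a sample far from the other 4: in 22 groups, 3 had such a sample. Chance flags about 1 in 20 groups. Tfrc read -2.52 in medullary LCM sample 4, with the other 4 at 0.39 to 1.50. Slc11a1 read -6.10 in subcapsular LCM sample 1, with the other 4 at 0.95 to 3.26, and was not above background there. Ftl1 read 4.61 in medullary LCM sample 5, with the other 4 at 3.62 to 3.88.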

How the results depend on the processing

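Of 883 alternative values of the iron handling genes, 824 kept their direction and side of the threshold, 45 changed sign, 7 of Tfrc moved beyond the spread between replicates, 3 passed the threshold and 4 lost it. The lost calls are those of Hmox1 between isolations: slide block, second slide, mean of probes and the probe at base 324, all given above; with each sample left out its limma adjusted p was 0.00166 to 0.0127. Those gained are Hmox1 and Ireb2 in sorted cells, given above. In sorted cells Tfrc stayed negative, at -9.73 to -3.2.

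Sign changes concern values with no call, whose cause was not tested. By LCM, Tfrc (main value 0.66) was -0.43 with normexp, -1.10 as the mean of probes, -3.01 with the second probe, -2.29 without both dim arrays and -0.27 with the row as a block, and ranged from -0.59 to 1.66 with 1 sample left out. By LCM, Slc40a1 (-0.05) was 0.68 with the percentile over probes detected everywhere and 1.33 with the slide as a block or the first slide alone (-0.68 to 1.09 left out), and Aco1 (-0.76) was 0.78 without both dim arrays (-1.20 to 0.09 left out). By FACS, Cd163 (0.61) was -0.44 with quantile normalization and -0.43 in the deposited table (-1.38 to 2.60 left out), and Fth1 (0.08) was -0.05 with normexp (-0.23 to 0.38 left out); Blvrb (-2.92) was 0.11 with normexp. In the change of the sinus difference with isolation, Ftl1 (0.58) was -0.04 with the percentile over detected probes and -0.32 without both dim arrays, Hmox1 (-1.25) was 0.17 as the mean of probes, Slc11a1 (-0.58) was 0.74 with normexp and 0.66 without both dim arrays (-1.82 to 1.06 left out), Slc40a1 (1.13) was -0.25 with the slide as a block (-0.29 to 2.55 left out) and Cd163 (0.97) ranged from -1.02 to 2.96 left out. Between isolations with the slide as a block, Aco1 (-0.50) was 0.10, Ireb2 (-0.95) 0.32, Slc11a1 0.13 and Slc40a1 (-0.93) 1.84; on the second slide alone Aco1 was 0.91, Slc11a2 (1.36) -0.70 and Slc40a1 1.72; Aco1 was 0.27 without both dim arrays. Cd163 (0.47) between isolations was -0.24 with quantile normalization, -0.09 with normexp and -0.21 in the deposited table (-0.53 to 1.46 left out).

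The share of all genes called moved more. By LCM 0.175% became 0.0548% (quantile), 0.837% (percentile over detected probes, which moved the all-gene median from 0.08 to 0.81), 0.0292% (normexp), 0.0585% (deposited table), 0.508% (strict filter), 0.464% (slide block), 0.775% (first slide alone) and 0.0512% (row block), and 0.0622% to 0.351% with 1 sample left out: 0.0622% without medullary 2, 0.336% without medullary 5 and 0.351% without medullary 4 or subcapsular 5. By FACS 0% became 6.51% with trend and robust moderation and 16.2% with all arrays in 1 fit, and stayed 0% with 1 sample left out. For the change with isolation 1.29% became 3.88% (quantile), 2.3% (normexp), 3.83% (deposited), 0.734% (no filter), 2.06% (strict), 0.155% (slide block) and 0.361% (no weights), and ranged from 0.0371% without subcapsular FACS 7 (0.317% without subcapsular FACS 6) to 3.72% without medullary FACS 6 (2.2% without medullary FACS 7). Between isolations 3.86% became 0.627% (slide block), 2.52% (no weights) and 0% (second slide alone, medullary samples), and was 2% to 5.28% left out, lowest without subcapsular FACS 6 and at 2.12% without subcapsular FACS 7. Scaling also moved the split of calls: by LCM 46 higher and 2 lower became 10 and 5 (quantile), 6 and 2 (normexp) and 11 and 5 (deposited); for the change with isolation 164 higher and 219 lower became 108 and 360 (percentile over detected probes) and 379 and 303 (normexp); between isolations 539 higher and 606 lower became 800 and 560 and 359 and 624.

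The replicate numbers gave no sign of pairing by LCM: deviations of same-numbered samples correlated at -0.019 to 0.005. Each subcapsular LCM sample correlated best with a medullary sample of another number. By FACS the correlation was -0.011. With 2 samples per sinus the deviations mirror each other, so both replicate numbers give the same value and cannot decide pairing. With the replicate number as a block 0% of genes were called by LCM, 0% by FACS and 0% for the change with isolation. None of the iron handling genes had a call in these comparisons without the block either. The comparison between isolations, which holds the Hmox1 call, was not fitted with that block.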
